A study of Mus musculus with 21 samples.

Results

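The transcripts of mouse bone-marrow-derived macrophages (BMDMs) after 48 h of lipopolysaccharide (LPS) were compared with those after 4 h, by pretreatment. The comparison used 9 of the 21 libraries of the study, namely 4 of 48 h and 5 of 4 h. BMDMs are macrophages grown from marrow, here of 12-week-old C57bl/6 mice cultured for 6 days in L929 medium, which supplies the growth factor M-CSF. All groups carried the same strain, age and culture. Cells had then been left without pretreatment or given succinate, a metabolite of the citric acid cycle, or dimethyl malonate (DMM), which yields malonate, an inhibitor of succinate dehydrogenase, for 3 h before LPS. At 4 h there were 2 libraries without pretreatment, 1 after succinate and 2 after DMM. At 48 h there were 1 without pretreatment, 1 after succinate and 2 after DMM. The 11 unstimulated libraries (3 untreated, 4 given succinate and 4 given DMM) served as the background level. Their columns give no hours, so both time points were merged. The treatment protocol in the labels names 4 h and 48 h as durations of LPS, and the comparison asks how the response differed between them.

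LPS binds the TLR4 receptor complex on macrophages and starts branched signalling. The MyD88 branch activates NF-kappa B within minutes and drives cytokines, chemokines and prostaglandin enzymes, many of which are shut down again by feedback proteins. The TRIF branch induces interferon beta, which acts back on the cells through its own receptor and keeps interferon-stimulated genes on for longer. A macrophage kept in LPS is known to go from early inflammatory output to a tolerant state, in which some LPS genes are silenced and others, such as antimicrobial genes, remain on.

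A further library labelled LPS 48 h, replicate 1, was left out by the rule that defined the comparison, since its Saa3 and Il1b lay at the unstimulated level. It had 29.2 CPM (a gene's counts scaled by library size) of Saa3 against 53040 to 107700 in the other 48 h libraries. Of the 199 genes called below, it lay inside the range of the 11 unstimulated libraries for 164 (82.4%), and of all 6806 genes tested for 5775 (84.9%). Counts of called genes overall and in most lists below are also given with this library. Total counts were 996916 to 1546867 in the 9 libraries and 662186 to 1223856 in the unstimulated ones. The DMM libraries stood apart from the others along the first principal component of the 9 libraries, which held 43.2% of the variance. Fth1, the ferritin heavy chain, took 10.5% to 12.4% of counts in the 4 DMM libraries and 5.25% to 6.7% in the other 5. No label ties replicates to different animals or culture dishes. The spread behind every p-value is therefore that between these libraries and may be technical. The 48 h cells also spent longer in culture, and their libraries are numbered apart from those of 4 h, so LPS time, culture time and any batch that went with the time point cannot be told apart.

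At 48 h, 110 genes were higher and 89 lower than at 4 h, of 6806 tested (edgeR's quasi-likelihood test with pretreatment as covariate, adjusted p under 0.05 after Benjamini-Hochberg adjustment, called rose or fell here). The called share was 2.92%, with 1.62% higher and 1.31% lower. Neutrophil-attracting chemokines, Arg1, Nos2, Ptgs2 and S100a8 fell, while interferon-stimulated genes, complement C1q, Lpl and Aif1 rose. The median log2 difference over all genes tested was 0.02, and 143 of the 199 called genes differed by a log2 value of at least 1. Within each of the 3 pretreatments, all 48 h libraries lay above all 4 h libraries for 102 of the 110 genes that rose, against 6.96% of all genes tested. They lay below in all 3 for 75 of the 89 that fell, against 5.7%. These counts come from the values the calls were made on and are a description.

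With the library labelled LPS 48 h replicate 1 added, 21 of 7321 genes tested passed (0.287%), 7 higher (0.0956%) and 14 lower (0.191%). All 21 were among the 199, and all 199 kept their direction. That library lay inside the unstimulated range for most genes tested. A gene can therefore pass with it where that level lies on its 48 h side, as with Lpl (1722 CPM) and Cxcl1 (0 CPM). Such a pass is no further support for a difference with LPS time. The number called moved by more than 1.5 times when 1 library was left out: 110 without DMM then LPS 4 h replicate B, 117 without its replicate A, 123 without succinate then LPS 4 h, 124 without succinate then LPS 48 h, and 314 without DMM then LPS 48 h replicate 2. DESeq2 called 132 genes. The fit without the pretreatment covariate called 2.

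**Figure D1:**
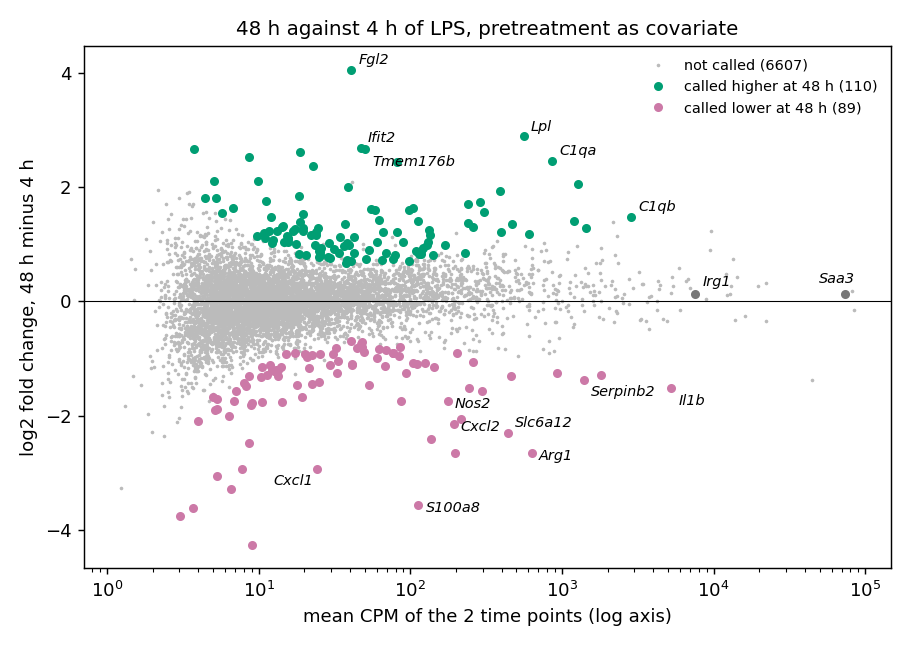
Log2 difference of 48 h minus 4 h of LPS (vertical axis) against the mean CPM of both time points (log axis) for the 6806 genes tested. The 110 genes called higher and 89 called lower are coloured, and Saa3 and Irg1, which were not called, lie near 0 at high levels.

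Promoters of 4 genes are shown for the motifs they hold, since Cxcl1 and Cxcl2 fell while Ifit3 and Isg15 rose. Each is the RefSeq window of 250 bases before to 50 bases after a gene start in GRCm38.p6, written 5′ to 3′ along the gene. Capitals mark the kappa B motif (GGG, NN and TTTCC in a row, with N any base) in Cxcl1 and Cxcl2, and the interferon-stimulated response element (ISRE, GAAA, NN and GAAA in a row) in Ifit3 and Isg15, on either strand. The windows lie at chr5:90890995-90891294 (+ strand), chr5:90903649-90903948 (+ strand), chr19:34583279-34583578 (+ strand) and chr4:156200769-156201068 (- strand).
Cxcl1: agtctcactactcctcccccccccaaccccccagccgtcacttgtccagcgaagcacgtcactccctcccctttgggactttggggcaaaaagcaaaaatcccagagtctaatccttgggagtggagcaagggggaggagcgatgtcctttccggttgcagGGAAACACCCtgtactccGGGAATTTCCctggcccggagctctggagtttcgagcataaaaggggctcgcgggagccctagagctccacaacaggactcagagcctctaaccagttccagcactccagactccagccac
Cxcl2: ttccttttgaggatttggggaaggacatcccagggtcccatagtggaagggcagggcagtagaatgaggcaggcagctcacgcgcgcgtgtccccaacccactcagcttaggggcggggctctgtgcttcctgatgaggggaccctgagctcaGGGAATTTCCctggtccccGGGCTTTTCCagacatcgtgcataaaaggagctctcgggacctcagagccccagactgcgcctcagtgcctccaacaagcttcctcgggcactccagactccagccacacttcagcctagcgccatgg
Ifit3: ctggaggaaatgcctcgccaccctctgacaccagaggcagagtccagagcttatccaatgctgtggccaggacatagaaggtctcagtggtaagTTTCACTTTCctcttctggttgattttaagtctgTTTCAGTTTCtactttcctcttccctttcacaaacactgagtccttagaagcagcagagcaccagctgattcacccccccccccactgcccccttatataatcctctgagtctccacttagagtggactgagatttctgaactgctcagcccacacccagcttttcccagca
Isg15: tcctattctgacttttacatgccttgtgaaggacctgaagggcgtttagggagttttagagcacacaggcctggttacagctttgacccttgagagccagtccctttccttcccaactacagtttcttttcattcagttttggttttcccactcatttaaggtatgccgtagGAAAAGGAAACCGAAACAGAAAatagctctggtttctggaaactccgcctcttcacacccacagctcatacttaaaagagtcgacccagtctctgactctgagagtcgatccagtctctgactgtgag
The Cxcl1 and Cxcl2 windows each hold 2 kappa B matches, Ifit3 holds 2 ISRE matches, and Isg15 holds 3 that overlap each other.

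Of the genes with a window, 6 of 69 that fell (8.7%) and 4 of 89 that rose (4.49%) held a kappa B match, against 116 of 5357 tested genes (2.17%). Among the 4 are Tmem176a and Tmem176b, whose windows overlap and hold the same site on opposite strands. An ISRE match was in 15 of 89 that rose (16.9%) and 3 of 69 that fell (4.35%), against 4.57% of tested genes. Ifit3 and I830012O16Rik, whose windows are nearly alike, each count among the 15. The AP-1 motif TGANTCA was in 17.4% of those that fell, 12.4% of those that rose and 6.55% of all tested. The core of the hypoxia response element, ACGTG, was in 27.5%, 21.3% and 31.7%. Among type I interferon response genes, an ISRE match was in 5 of 11 with a window that rose and in 9 of 17 with a window that were not called. Both strands were searched, each motif on its own and with overlaps counted. A match is a run of letters and not a binding site, and these shares were not tested.

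In the next paragraphs, CPM values are given in the order no pretreatment (2 libraries at 4 h, 1 at 48 h), succinate (1 and 1) and DMM (2 and 2), and values after ± are standard errors of log2 differences. Of 16 tested chemokine genes, 3 fell, 1 rose and 12 were not called, with a median log2 difference of -0.16. With the library labelled LPS 48 h replicate 1, 2 fell and 0 rose. The 3 that fell are Cxcl1, Cxcl2 and Cxcl3, close relatives on chromosome 5 that draw neutrophils through the receptor CXCR2. Cxcl2 measured 209.7, 211, 963, 61.9 and 70.6 CPM at 4 h and 46.1, 259.6, 15.7 and 11.4 CPM at 48 h. It was lower at 48 h in each pretreatment, but the succinate library of 48 h lay above the 4 libraries of 4 h without succinate. The fitted log2 difference was -2.14 ± 0.26 (adjusted p = 8.8e-07, edgeR, and 0.196 with the library labelled LPS 48 h replicate 1).

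Cxcl1 measured 5.5, 10.8, 182, 5.72 and 7.22 CPM at 4 h and 1.65, 20.1, 0.714 and 1.62 CPM at 48 h. Its level, like that of Cxcl3, was far higher in the succinate library than in the others at both times. The Cxcl1 difference was -2.93 ± 0.33 (adjusted p = 2.21e-07, edgeR, and 0.00383 with the left-out library). Cxcl3 measured 9.16, 6.32, 1082, 7.62 and 5.62 CPM at 4 h and 1.65, 200.2, 0.714 and 1.62 CPM at 48 h. Outside succinate both genes stood at a few CPM at 48 h, yet above the unstimulated libraries, which all held 0 counts of either. The Cxcl3 difference was -2.41 ± 0.35 (adjusted p = 2.87e-05, edgeR, and 0.0188 with the left-out library).

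Ccl5, a chemokine for T cells and monocytes that interferon also induces, was not called. Its CPM values were 7781, 7960, 2255, 4755 and 6306 at 4 h and 12770, 4440, 13710 and 22280 at 48 h, with a difference of 1.24 ± 0.37 (adjusted p = 0.0601, edgeR). The chemokine that rose, Cxcl10, is described with the interferon-stimulated genes.

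Of 10 tested cytokine genes, Csf3 and Il1b fell and none rose, with a median of -0.56 (1 fell with the library labelled LPS 48 h replicate 1). Csf3, which encodes the granulocyte growth factor G-CSF, measured 8.24, 8.13, 34.9, 3.81 and 4.81 CPM at 4 h and 3.29, 0.958, 0 and 0 CPM at 48 h. All 48 h libraries lay below all 4 h libraries. The difference was -3.28 ± 0.58 (adjusted p = 0.000403, edgeR, and 0.0278 with the left-out library), and the call was lost without succinate then LPS 48 h (adjusted p = 0.0661).

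Il1b, the precursor of the fever-inducing cytokine interleukin-1 beta, measured 5607, 7758, 13050, 2938 and 5209 CPM at 4 h and 4251, 8847, 468 and 819 CPM at 48 h. The drop was deepest after DMM, and the 48 h succinate library stayed above 4 of the 5 libraries of 4 h. The difference was -1.52 ± 0.41 (adjusted p = 0.0352, edgeR, and 0.756 with the left-out library). The Il1b call was lost without either 48 h DMM library, either 4 h DMM library or LPS 4 h replicate B, with adjusted p-values up to 0.438. The unstimulated range of Il1b was 1.32 to 10.03 CPM. That the 4 libraries of 48 h lay above it was fixed by the choice of libraries, which used Il1b.

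Tnf, the gene of tumour necrosis factor, was not called. It measured 315, 305, 415, 86.2 and 124 CPM at 4 h and 224, 198, 86.3 and 98.2 CPM at 48 h, with a difference of -0.48 ± 0.24 (adjusted p = 0.389, edgeR). The 48 h values lay inside the 4 h range and above the unstimulated range of 1.92 to 5.5 CPM. The interleukin-1 receptor antagonist gene Il1rn had a difference of -0.56 ± 0.29 and Il1a one of -0.56 ± 0.42, neither called (adjusted p = 0.404 and 0.625, edgeR).

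Of 15 tested enzymes of arginine, itaconate and prostaglandin metabolism, 3 fell and 1 rose, with a median of -0.22 (0 and 0 with the library labelled LPS 48 h replicate 1). Arg1, the arginase that turns arginine into ornithine, measured 252, 339.5, 1031, 1296 and 2360 CPM at 4 h and 39.5, 359, 105 and 342 CPM at 48 h. It was lower at 48 h within each pretreatment, although the groups overlapped. The difference was -2.64 ± 0.38 (adjusted p = 3.84e-05, edgeR, and 0.277 with the left-out library), and the call was lost without DMM then LPS 48 h replicate 2 (adjusted p = 0.0778).

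Nos2, the inducible nitric oxide synthase, which uses the same substrate, measured 120.0, 133, 215, 369.7 and 407 CPM at 4 h and 29.6, 31.6, 116 and 239 CPM at 48 h. Its log2 difference was -1.73 ± 0.29 (adjusted p = 0.000201, edgeR, and 0.333 with the left-out library). Ptgs2, the cyclooxygenase of inflammatory prostaglandin synthesis, measured 65.9, 65.9, 176, 165 and 199.8 CPM at 4 h and 42.8, 30.65, 34.25 and 50.3 CPM at 48 h. All 48 h libraries lay below all 4 h libraries, and the difference was -1.75 ± 0.26 (adjusted p = 4.94e-05, edgeR, and 0.339 with the left-out library). Ass1, which rebuilds arginine from citrulline, rose by 0.93 ± 0.23 (adjusted p = 0.0188, edgeR, and up to 0.153 without LPS 48 h replicate 2, either 4 h DMM library or LPS 4 h replicate A).

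Some other genes that LPS induces were not called. Irg1, the enzyme that makes itaconate from aconitate, measured 9843, 10810, 11950, 2977 and 3871 CPM at 4 h and 8721, 9961, 3667 and 6591 CPM at 48 h. The difference was 0.14 ± 0.36 (adjusted p = 0.908, edgeR), with all 9 libraries above the unstimulated range of 1.83 to 28.8 CPM. Saa3, an acute-phase protein gene, had 74150, 85450, 44910, 60220 and 89950 CPM at 4 h and 80330, 53040, 61390 and 107700 CPM at 48 h (0.14 ± 0.40, adjusted p = 0.915, edgeR). The choice of 48 h libraries used Saa3, so its level there is a description. Irg1 and Saa3 changed sign, uncalled, when the left-out library was added (-0.32 for Irg1 and -0.28 for Saa3). The prostaglandin E synthase gene Ptges differed by -0.16 ± 0.32 and the iron-binding lipocalin gene Lcn2 by 0.00 ± 0.37, neither called (adjusted p = 0.877 and 0.998, edgeR). Lcn2 measured 5180, 5583, 8106, 1785 and 2456 CPM at 4 h and 4681, 3383, 1974 and 5138 CPM at 48 h. The means of both genes were lower at 48 h without pretreatment and after succinate, and higher after DMM. Of 17 tested acute-phase and antimicrobial genes, Marco rose (1.74 ± 0.34) and Slpi fell (-1.28 ± 0.35), with adjusted p = 0.00211 and 0.0335 (edgeR). The list median was 0.12, and 0 were called with the left-out library. The Marco call held in 7 of 9 fits that left out 1 library, and that of Slpi in 2 of 9.

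**Figure D2:**
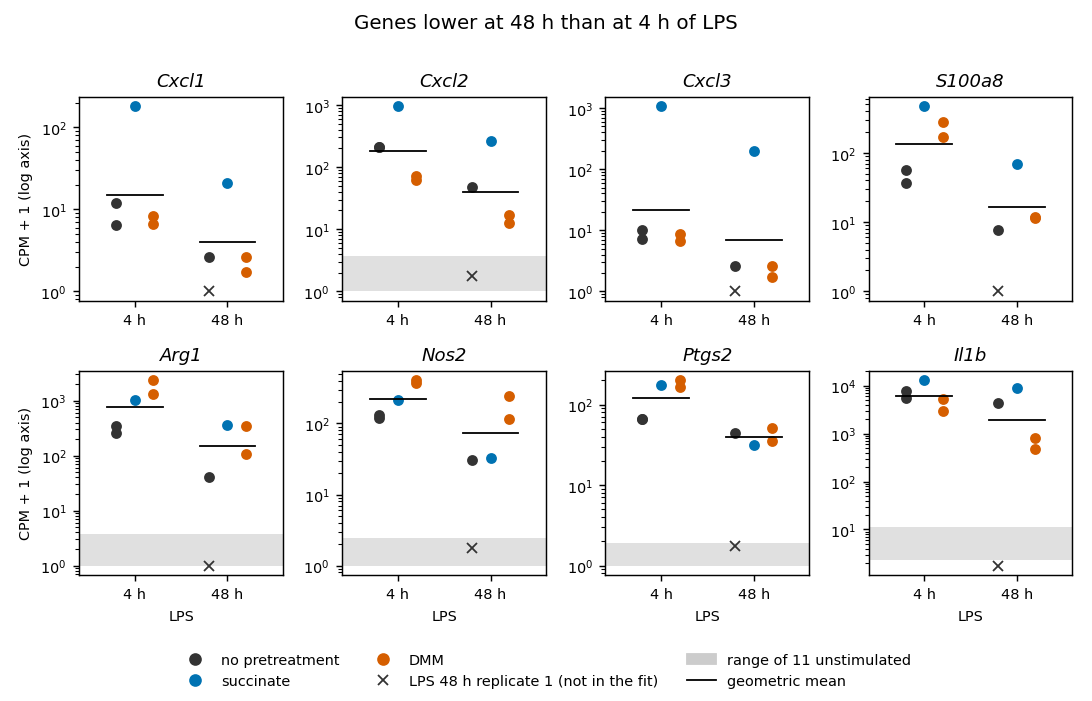
CPM + 1 (log axis) of 8 genes that fell, in each library of 4 h and 48 h of LPS by pretreatment, with the geometric mean as a bar, the range of the 11 unstimulated libraries as a grey band and the library labelled LPS 48 h replicate 1 as a cross. Cxcl1, Cxcl3 and S100a8 have no band, as all unstimulated libraries held 0 counts, and the cross lies at 0.767 CPM or less in each panel.

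S100a8, which encodes a subunit of the calcium-binding protein calprotectin, had the lowest adjusted p among the genes named as falling. It measured 35.7, 55.98, 475, 169 and 277 CPM at 4 h and 6.59, 68.01, 10.7 and 10.55 CPM at 48 h. The difference was -3.56 ± 0.31 (adjusted p = 1.9e-09, edgeR, and 0.00383 with the left-out library). S100a8 and the collagenase gene Mmp8 (-1.07 ± 0.23) are also neutrophil markers. Of 15 neutrophil markers, 5 were tested, these 2 fell (1 with the library labelled LPS 48 h replicate 1) and 6 had 0 counts in all 9 libraries, among them Ly6g, Elane, Ltf and Ngp. The partner gene S100a9 had at most 1 count in a library. The summed level of the 15 was 2060 to 12400 CPM at 4 h and 2050 to 5200 CPM at 48 h.

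Among proteases and their inhibitors, 5 of 20 tested genes fell (Serpinb2, Plaur, F13a1, Mmp8 and Mmp13) and none rose, with a median of -0.03 (0 fell with the library labelled LPS 48 h replicate 1). Serpinb2, which encodes the plasminogen activator inhibitor PAI-2, measured 3277, 3580, 2352, 229 and 372 CPM at 4 h and 1275, 1906, 89.9 and 71.4 CPM at 48 h. It was lower at 48 h in each pretreatment by -1.38 ± 0.34 (adjusted p = 0.0177, edgeR). The Serpinb2 call was lost without LPS 48 h replicate 2 or DMM then LPS 4 h replicate B (adjusted p up to 0.176), and those of Plaur and Mmp13 without 3 and 5 libraries (up to 0.0721 and 0.147). Without succinate then LPS 48 h, LPS 48 h replicate 2, DMM then LPS 4 h replicate B or succinate then LPS 4 h, 3 members fell.

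Solute carriers were among the genes whose libraries did not overlap. Over all genes tested, 140 (2.06%) had no overlap between the times, 0.984% higher and 1.07% lower, and 48 of these were called. Slc6a12, a betaine and GABA transporter, measured 397, 424, 1459, 606 and 747 CPM at 4 h and 133, 297, 97.04 and 102 CPM at 48 h. The fitted difference was -2.29 ± 0.30 (adjusted p = 2.72e-06, edgeR, and 0.0169 with the left-out library). Slco4a1, an organic anion transporter, measured 268, 259, 621, 259.6 and 318 CPM at 4 h and 77.4, 123, 66.4 and 67.3 CPM at 48 h. Its 4 h libraries lay inside the unstimulated range of 177 to 716 CPM, and its 48 h libraries all lay below it. The difference was -2.06 ± 0.25 (adjusted p = 8.8e-07, edgeR, and 0.0397 with the left-out library). The other named genes that fell without overlap were Akr1b3, Sh3bgrl2, Med23, Ier3, Orai2, Ddx39, Lpp, Hipk1 and Ampd3, with differences from -1.46 for Akr1b3 to -0.86 for Ampd3. Of these, calls were lost without succinate then LPS 48 h (Ier3, Ddx39 and Hipk1), LPS 48 h replicate 2 (Lpp), DMM then LPS 4 h replicate A (Ddx39) or B (Ier3), or succinate then LPS 4 h (Ddx39), with adjusted p-values up to 0.0921.

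Of 38 tested genes of the type I interferon response, 15 rose and none fell, with a median of 0.74 beside 0.02 over all genes. With the library labelled LPS 48 h replicate 1 the count was 1, with a median of 0.40, and without DMM then LPS 4 h replicate B it was 9. At 48 h the mean was above that of 4 h for 32 of the 38 genes without pretreatment, 33 after succinate and 36 after DMM, where 49.3%, 50.6% and 53.6% of all genes tested were. Ifit2, an antiviral protein that binds viral RNA, measured 11.9, 15.35, 3.27, 14.3 and 15.2 CPM at 4 h and 59.3, 7.66, 124 and 138 CPM at 48 h. It was higher at 48 h in every pretreatment, but the succinate library of 48 h stayed below the 4 libraries of 4 h without succinate. The unstimulated range of Ifit2 was 8.25 to 34.2 CPM, so all 4 h libraries and the succinate library of 48 h lay inside or below it. The difference was 2.69 ± 0.24 (adjusted p = 9.82e-10, edgeR, and 0.00383 with the left-out library, which itself stood at 35.3 CPM).

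Ifit3, of the same family, measured 18.3, 17.1, 3.27, 15.2 and 24.9 CPM at 4 h and 60.9, 10.5, 59.2 and 118 CPM at 48 h. All 5 libraries of 4 h lay at or below the highest unstimulated value of 25.7 CPM, and the 3 libraries of 48 h without succinate lay above it. The difference was 2.00 ± 0.24 (adjusted p = 7.2e-07, edgeR, and 0.406 with the left-out library). I830012O16Rik, which also rose, has nearly the same promoter window as Ifit3, and whether the genes share reads was not tested. Isg15, a ubiquitin-like modifier, measured 65.0, 79.45, 20.7, 13.3 and 10.4 CPM at 4 h and 156, 42.1, 32.1 and 88.4 CPM at 48 h (1.59 ± 0.31, adjusted p = 0.00821, edgeR, and 0.801 with the left-out library). Unlike Ifit3, Isg15 already stood above its unstimulated range of 0.66 to 9.17 CPM in all 4 h libraries.

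Rsad2, the antiviral enzyme viperin, measured 111, 133, 22.9, 196 and 217 CPM at 4 h and 289, 46, 533 and 1055 CPM at 48 h (1.56 ± 0.28, adjusted p = 0.000469, edgeR, and 0.502 with the left-out library). Others that rose were Cmpk2, Ddx58, Dhx58, Herc6, Ifi204, Ifi44, Ifit1, Isg20, Mx1 and Oasl1, of which Ifi204 has near-identical relatives and is uncertain.

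Cxcl10, a T-cell chemokine induced by interferon, measured 5.5, 10.8, 3.27, 6.19 and 2.41 CPM at 4 h and 44.5, 1.92, 32.8 and 48.7 CPM at 48 h. It was higher at 48 h without pretreatment and after DMM but not after succinate, where there is 1 library per time and no test. The difference over all pretreatments was 2.62 ± 0.32 (adjusted p = 5.36e-06, edgeR, and 0.468 with the left-out library). None of 9 tested interferon-inducible GTPases, which attack intracellular pathogens, was called with or without the library labelled LPS 48 h replicate 1. All 9 had a positive difference in the fit over all pretreatments, and their median was 0.72. Means were higher at 48 h for 9 without pretreatment, 6 after succinate and 8 after DMM, where 49.3%, 50.6% and 53.6% of all genes tested were. Among the 9, the lowest adjusted p was that of Gbp3 (0.0502, edgeR, log2 difference 1.43 ± 0.41). After succinate Gbp3 was lower at 48 h, at 1.92 against 3.27 CPM.

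In the class I antigen presentation and immunoproteasome list, Psmb9 (0.87 ± 0.22) and the peptide transporter gene Tap1 (0.81 ± 0.22) rose, none of 20 fell, and the median was 0.38 (0 rose with the library labelled LPS 48 h replicate 1). Both calls were lost without succinate then LPS 48 h, LPS 48 h replicate 2, DMM then LPS 4 h replicate B or succinate then LPS 4 h, and that of Tap1 also without either 4 h library that had no pretreatment or DMM then LPS 4 h replicate A, with adjusted p-values up to 0.208 (edgeR). Of the 20 genes, 4 stood above all unstimulated libraries in every 4 h library and 9 in every 48 h library.

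**Figure D3:**
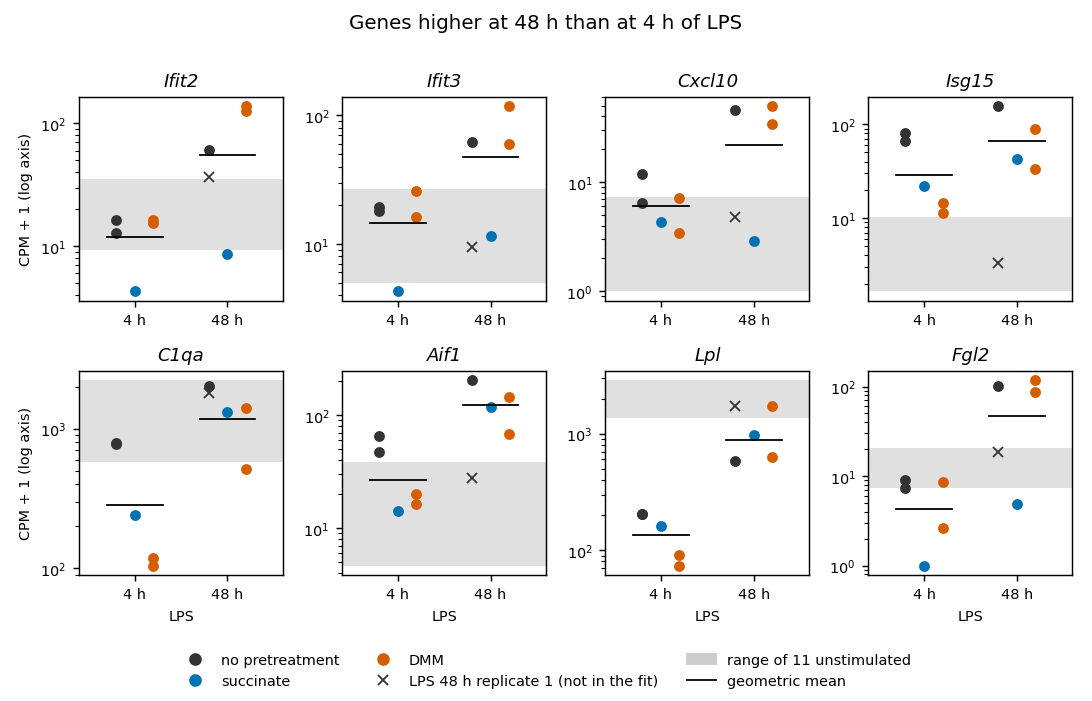
CPM + 1 (log axis) of 8 genes that rose, drawn as in the plot of genes that fell. The libraries of Lpl at 4 h (72.9 to 204 CPM) lie below the unstimulated band, while those of Isg15 lie above it at both times.

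The 3 chains of C1q, the recognition protein of the classical complement pathway that macrophages secrete, all rose, and no other of 12 tested complement genes was called (median 0.28, and 0 called with the library labelled LPS 48 h replicate 1). C1qa measured 789, 774, 238, 103 and 117 CPM at 4 h and 2034, 1313, 509.5 and 1397 CPM at 48 h. Its unstimulated range was 572 to 2224 CPM, so the 4 h libraries of succinate and DMM lay below it and 3 of the 4 libraries of 48 h inside it. The difference was 2.46 ± 0.36 (adjusted p = 3.05e-05, edgeR, and 0.0696 with the left-out library). C1qc differed by 2.05 ± 0.37 (adjusted p = 0.00052, edgeR, and 0.141). C1qb differed by 1.48 ± 0.36 (adjusted p = 0.0127, edgeR), and its call was lost without either succinate library or either 4 h DMM library (adjusted p up to 0.106).

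Of 24 tested genes of lipid handling, Lpl, Nr1h3, Scd2 and Apoc2 rose and none fell, with a median of 0.25 (1 rose with the library labelled LPS 48 h replicate 1). Lpl, the lipoprotein lipase, measured 203, 204, 160.4, 72.9 and 90.65 CPM at 4 h and 586, 966, 634 and 1713 CPM at 48 h. The 4 h libraries lay below the unstimulated range of 1369 to 2873 CPM, and 1 of the 4 libraries of 48 h was back inside it. The difference was 2.90 ± 0.40 (adjusted p = 8.64e-05, edgeR, and 0.0133 with the left-out library). Nr1h3, the sterol-sensing receptor LXR alpha, measured 3.66, 7.22, 6.55, 3.81 and 5.62 CPM at 4 h and 27.99, 12.45, 16.4 and 11.4 CPM at 48 h (1.76 ± 0.32, adjusted p = 0.000483, edgeR, and 0.0583 without LPS 48 h replicate 2). Scd2, a desaturase, and Apoc2, which activates lipoprotein lipase, had adjusted p-values of 0.0396 and 0.0485 (edgeR), and both calls were lost without any library but DMM then LPS 48 h replicate 2, except that Scd2 kept its call without replicate 1 of that group. The annotation gives Apoc2 79.5% of its exonic bases in common with another gene on the same strand.

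Of 21 tested macrophage identity genes, Aif1, Cx3cr1 and Cd5l rose and none fell, with a median of 0.28 (0 called with the library labelled LPS 48 h replicate 1). Aif1, the calcium-binding protein IBA1, measured 45.8, 64.1, 13.1, 19.05 and 15.2 CPM at 4 h and 203, 118, 67.1 and 143 CPM at 48 h. All 48 h libraries lay above all 4 h libraries and above the unstimulated range of 3.67 to 37.2 CPM. The difference was 2.43 ± 0.25 (adjusted p = 5.19e-08, edgeR, and 0.311 with the left-out library). The fractalkine receptor gene Cx3cr1 lost its call without either succinate library or DMM then LPS 4 h replicate A (adjusted p up to 0.259), and Cd5l without DMM then LPS 4 h replicate B (0.119). Cd5l measured 37.6 and 24.9 CPM at 4 h and 113 and 106 CPM at 48 h after DMM. It was not higher at 48 h in the other pretreatments, at 11.9 and 6.32 against 9.06 CPM without pretreatment and 3.27 against 2.87 CPM after succinate. In bulk RNA, fewer cells of a type and less RNA per cell cannot be told apart.

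The cultures carried many macrophage markers at both times, but not all. Of 24 macrophage identity genes with counts given, 21 were tested. Cebpa, Cebpb and Ccr2 reached at most 2.14, 7.66 and 2.85 CPM in the 9 libraries. Cx3cr1 and Trem2 were at 0.953 and 3.29 CPM in their lowest libraries. Lyz2 was at 58400 CPM or more in all 9 libraries and Emr1 (F4/80) at 3900 CPM or more. Lymphocyte markers summed to 1.09 to 4.58 CPM at 4 h and 0.823 to 4.28 CPM at 48 h, with 11 of 18 at 0 in all 9 libraries. Fibroblast markers summed to 16.4 to 40.3 CPM and 16.3 to 27.1 CPM, with 2 of 12 tested, 1 at 0 in all 9 libraries and Dcn lower at 48 h (-1.80 ± 0.37). Erythroid and mast cell markers summed to 0 to 1.83 CPM at 4 h and 0 at 48 h, endothelial and epithelial ones to 0 to 4.01 CPM and 1.92 to 8.92 CPM. Dendritic cell markers summed to more, 359 to 860 CPM and 552 to 1200 CPM, with 1 of 11 tested. That gene, Bst2, held 357 to 1200 CPM over the 9 libraries. Osteoclast markers summed to 56.2 to 3290 CPM and 44.6 to 1160 CPM, with 4 of 10 tested and none called. Of these, Mmp9 held 6.49 to 3250 CPM over the 9 libraries. Their part in the results was not tested.

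Tmem176b, a membrane protein gene of myeloid cells, passed both with and without the left-out library. It measured 25.6, 32.5, 19.65, 4.29 and 4.81 CPM at 4 h and 169, 70.9, 51.4 and 44.6 CPM at 48 h, with no overlap. The difference was 2.66 ± 0.23 (adjusted p = 3.44e-10, edgeR, and 0.000434 with the left-out library, which itself stood at 236 CPM within the unstimulated range of 5.5 to 275 CPM). Its neighbour Tmem176a differed by 1.85 ± 0.28 (adjusted p = 4.5e-05, edgeR, and 0.0278). Fgl2, a secreted prothrombinase-like protein gene, had the highest difference of the genes named here (4.06 ± 0.27, adjusted p = 1.47e-12, edgeR, and 0.0386 with the left-out library). Its CPM values were 6.41, 8.13, 0, 7.62 and 1.604 at 4 h and 100.4, 3.83, 85.6 and 117 at 48 h, so the succinate library of 48 h was again the low one. H2-M2, a non-classical class I gene, measured 14.65, 8.13, 4.37, 2.86 and 7.22 CPM at 4 h and 42.8, 72.8, 20.7 and 17.04 CPM at 48 h (2.36 ± 0.29, adjusted p = 3.02e-06, edgeR, and 0.551), and there the succinate library was the high one.

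Txnip, a thioredoxin-binding protein, measured 30.2, 30.7, 28.4, 25.7 and 20.06 CPM at 4 h and 74.1, 106, 54.2 and 99.8 CPM at 48 h. At 4 h all libraries lay below the unstimulated range of 43.3 to 451 CPM, and at 48 h all lay inside it (1.62 ± 0.21, adjusted p = 2.72e-06, edgeR, and 0.0823 with the left-out library). Its exons share 19.4% of their bases with a gene on the opposite strand, so its counts are uncertain. Blnk, a signalling adaptor, rose by 1.11 ± 0.26 and still lay below the unstimulated libraries in all 48 h libraries, though its call was lost without LPS 48 h replicate 2 or DMM then LPS 4 h replicate A (adjusted p up to 0.0901). Npy, Cyfip2, Tifab and the Src-family kinase gene Fgr also rose without overlap, by 1.12 to 1.39, and Gpnmb by 1.29 ± 0.36. The Gpnmb call was lost without either succinate library, either 4 h DMM library or LPS 4 h replicate A (adjusted p up to 0.237, edgeR). Without LPS 4 h replicate B it lay at the threshold.

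Set against the 11 unstimulated libraries, 41 of the 89 genes that fell (46.1%) stood above all of them in every 4 h library, and 27 (30.3%) still did in every 48 h library. Of the 110 that rose, 26 (23.6%) stood above at 4 h and 42 (38.2%) at 48 h, while 16 (14.5%) lay below at 4 h and 7 (6.36%) at 48 h. Over all genes tested the shares above were 9.21% and 10.8%, and those below 5.5% and 5.76%. The genes that fell include ones whose 4 libraries of 48 h stood above the unstimulated range, such as Cxcl2 and Nos2. They also include ones at or below it, such as Slco4a1. The left-out library held 0.767 CPM of Cxcl2 and of Nos2, inside their unstimulated ranges, so positions at 48 h depend on the choice of libraries. The sets were picked by direction on these same values, so the shifts between times are a description. The 4 h arm has 5 libraries and the 48 h arm 4, which makes an all-library position slightly easier to reach at 48 h.

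**Figure D4:**
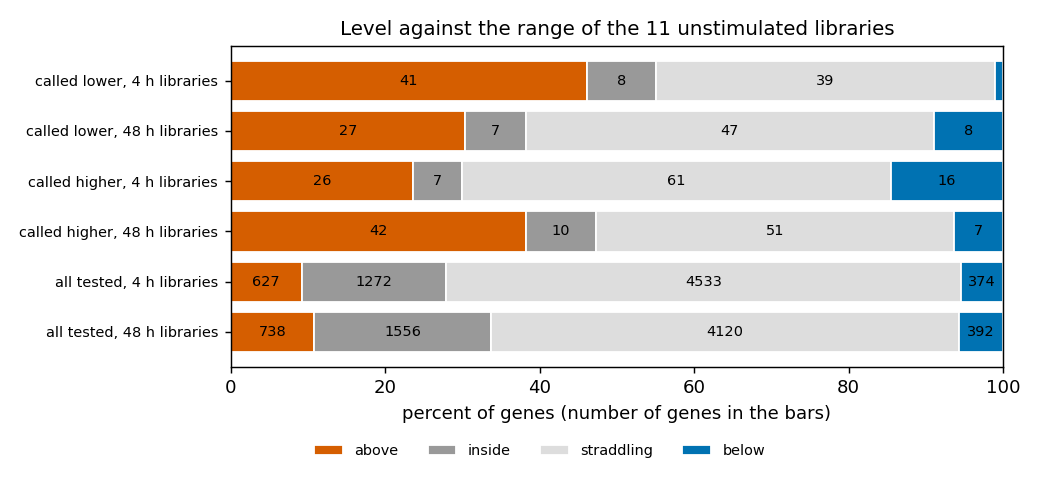
Percent of genes (horizontal axis) whose libraries of 4 h or 48 h of LPS all lay above, inside or below the range of the 11 unstimulated libraries, or straddled its edges, for the 89 genes called lower, the 110 called higher and all 6806 tested. Above all unstimulated libraries were 41 and then 27 of the genes that fell, and 26 and then 42 of those that rose.

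Several lists of the LPS programme held no called gene, where 2.92% of all genes tested were called. At that share, lists of this size can hold none without differing from all genes. None of 25 tested genes of NF-kappa B signalling (median -0.06), 19 feedback inhibitors (0.18), 27 of glycolysis and the pentose phosphate pathway (-0.11) or 16 HIF-1 targets (-0.18) passed, also with the library labelled LPS 48 h replicate 1. Of the feedback inhibitors, 13 of 19 stood above all unstimulated libraries in every 4 h library, and 13 in every 48 h library. The glucose transporter gene Slc2a1 measured 124.5, 115, 123, 108 and 114 CPM at 4 h and 88.1, 74.7, 67.1 and 66.5 CPM at 48 h. Its groups did not overlap, but the difference of -0.64 ± 0.20 missed the threshold (adjusted p = 0.088, edgeR). Hif1a, the hypoxia factor, differed by -0.54 ± 0.29 (adjusted p = 0.41, edgeR).

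**Figure D5:**
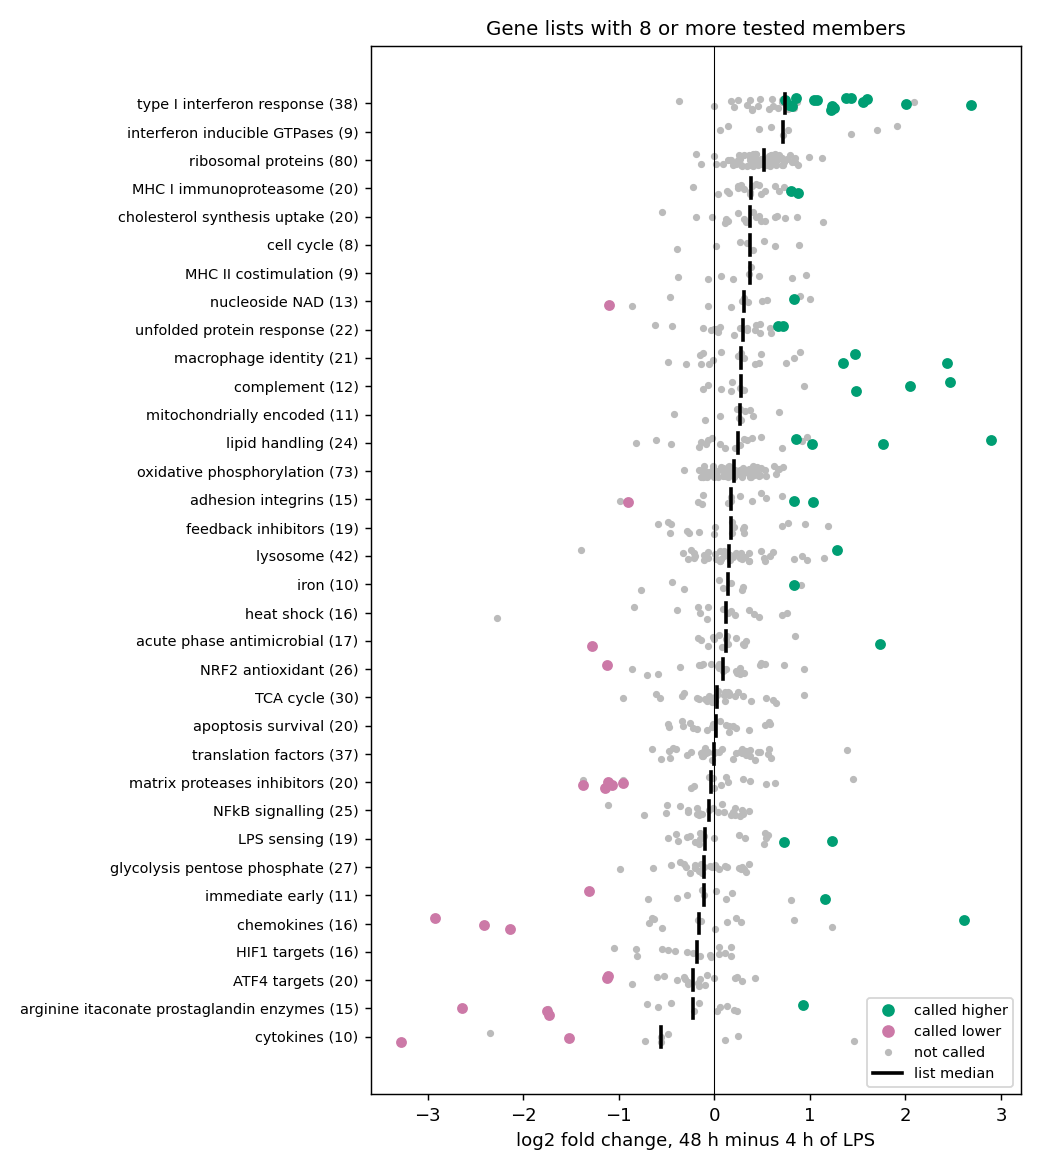
Log2 difference of 48 h minus 4 h (horizontal axis) for each tested gene of the 34 lists with 8 or more tested members, numbers of tested genes in parentheses, with list medians as black bars. The type I interferon list has the highest median (0.74) and the cytokines the lowest (-0.56).

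The difference between times was also compared between DMM and no pretreatment, with 1 library of 48 h without pretreatment, assumed to vary like the other groups. It passed for 4 of 6806 genes (0.0588%), Ifi205, Plp2, Rps23 and Slc13a3, all with a higher 48 h to 4 h difference after DMM, and 406 had an unadjusted p under 0.05. With the library labelled LPS 48 h replicate 1, 0 genes passed in edgeR (387 at an unadjusted p under 0.05), and DESeq2 called 0 (76 unadjusted). Leaving out 1 library gave 1 to 275 genes, the latter without DMM then LPS 48 h replicate 1.

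Ifi205, an interferon-inducible DNA-binding protein gene, measured 51.3 and 55.07 CPM at 4 h and 82.3 CPM at 48 h without pretreatment, and 6.67 and 4.01 CPM at 4 h and 49.95 and 79.5 CPM at 48 h after DMM. The difference between the differences was 2.87 ± 0.51 (adjusted p = 0.00516, edgeR). Low DMM values at 4 h were followed by 48 h values near those without DMM. It has near-identical relatives, so its counts are uncertain. Slc13a3, a transporter of succinate and other dicarboxylates, measured 62.3 and 65.0 CPM at 4 h and 60.1 CPM at 48 h without pretreatment, and 1.43 and 2.41 CPM at 4 h and 10.7 and 20.3 CPM at 48 h after DMM (3.10 ± 0.64, adjusted p = 0.0322, edgeR). Rps23, a ribosomal protein gene, measured 120.0 and 106.5 CPM at 4 h and 99.6 CPM at 48 h without pretreatment, and 8.10 and 12.03 CPM at 4 h and 33.5 and 80.3 CPM at 48 h after DMM (2.71 ± 0.58, adjusted p = 0.0477, edgeR).

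Plp2 differed in another way, from 53.1 and 56.9 CPM at 4 h to 10.7 CPM at 48 h without pretreatment, and from 10.5 and 17.65 CPM to 12.8 and 25.15 CPM after DMM (2.82 ± 0.58, adjusted p = 0.0322, edgeR). The 48 h value without pretreatment is that of LPS 48 h replicate 2 alone, and the left-out library held 36.8 CPM of Plp2. In the annotation, 18.4% of its exonic bases lie opposite another gene, and the use of strand is not known. Of 80 tested ribosomal protein genes, 78 had a higher mean at 48 h after DMM (median log2 difference 1.23 on log2 of CPM + 1), 58 after succinate (0.12) and 12 without pretreatment (-0.20). Over all genes tested the shares were 53.6%, 50.6% and 49.3%. None of the 80 passed in the comparison over all pretreatments (median 0.52). They took 0.549% to 0.597% of counts in the DMM libraries of 4 h, 0.775% to 1.2% in those of 48 h, and 1.54% to 1.7% in the other 5 libraries. This share moved with the DMM difference, and its part in it was not tested.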

How the data were processed

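Bulk RNA sequencing was done on lysed cells with amplified full-length cDNA made by a variant of SmartSeq2, per the labels' protocols. The values are read counts per gene symbol for 34573 genes, as deposited by the authors. TopHat2, Bowtie, HTSeq and edgeR are named, per the submitters' processing notes. Their versions, the build, the annotation and the strand setting were not given in the sources used here. Counts of overlapping genes are therefore uncertain. No molecular identifiers are named, so copies made by amplification count more than once.

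Column names gave the treatment, the hours and the number of each stimulated library. The columns of 4 h carry numbers where the labels carry A and B. They were matched in order, an assumption drawn from the succinate then LPS 4 h library alone. Genes passed edgeR's filter with a minimum count of 10 and a minimum total of 15, over 6 groups of pretreatment and time. TMM factors set the library sizes, and genes were tested with edgeR 4.0.16 (R 4.3.3) by quasi-likelihood with robust estimation, pretreatment as covariate, and p-values adjusted by Benjamini-Hochberg across every tested gene (threshold 0.05). It left 5 residual degrees of freedom, with a biological coefficient of variation of 0.226. A standard error is the log2 difference divided by the square root of F. DESeq2 1.42.0 was an alternative. The fit was tested on simulated data.

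Named genes are the 12 highest and 12 lowest called differences among genes without overlap and with at least 20 CPM in the higher arm, the genes of lowest p in each list (at most 3), a panel of LPS genes, and called genes of the DMM difference. Cxcl3, Isg15, Rsad2, Fgl2, Serpinb2, Ass1, Tmem176a, Mmp13, Apoc2 and members listed by name only were chosen after their values were seen. The members and lists were chosen with earlier results of these data known. Promoters came from RefSeq (GRCm38.p6), and gene overlaps from a mouse annotation that may differ from that of the counts. The values of 1 called gene are not reported here.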

Additional observations from a re-analysis of the deposited data

Results flagged for a closer look

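In 3 genes the succinate then LPS 4 h library stood far from the other 4 libraries of 4 h. It held 621 CPM of Slco4a1 against 259 to 318, 58.9 CPM of Akr1b3 against 15.6 to 21.7, and 963 CPM of Cxcl2 against 61.9 to 211. Cxcl2 was also far higher in the succinate then LPS 48 h library, at 259.6 CPM against 11.4 to 46.1. Cyfip2 was lowest in LPS 4 h replicate B, at 8.13 CPM against 9.82 to 10.5. These are 5 of 86 groups of values looked at (5.81%). Chance gives about 1 in 20 among libraries of the same kind, but each group mixed pretreatments, so the rates cannot be compared. All flags but that of Cyfip2 were in succinate libraries.

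The difference between 48 h and 4 h was itself different after DMM and without pretreatment for 4 genes (edgeR, interaction term). On the log2 scale this was 2.87 for Ifi205, 2.82 for Plp2, 2.71 for Rps23 and 3.10 for Slc13a3, and none of them passed when the library labelled LPS 48 h replicate 1 was added.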

How the results depend on the processing

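All 199 called genes that were tested under another setting kept their direction there, over the 19 alternatives run, and 42 of the 75 called genes followed singly were called in every fit that left out 1 library. The number of called genes depended on the setting. DESeq2 called 132 (73 higher, 59 lower), the fit with the library labelled LPS 48 h replicate 1 called 21 (7 and 14), and the fit without the pretreatment covariate 2 (2 and 0, with 350 at an unadjusted p under 0.05). Libraries without pretreatment alone gave 23 (9 and 14), a test against a log2 difference of 1 gave 23 (10 and 13), and DMM libraries alone gave 196 (139 and 57). Leaving out 1 library gave 110 to 314 (53 to 151 higher, 55 to 163 lower). The DMM difference, with 4 genes, gave 0 with DESeq2 (76 unadjusted), 1 with median-of-ratios factors, 11 without the filter, 0 with the library labelled LPS 48 h replicate 1 (387 unadjusted), 0 with all 20 libraries (389 unadjusted) and 1 to 275 on leaving out 1 library, and could not be fitted without LPS 48 h replicate 2. With the replicate block, 225 genes were called, 196 of them shared, and 69 for the DMM difference. The labels number the times differently (A and B, 1 and 2), and the difference between the 2 DMM libraries at 48 h against that at 4 h had r = 0.25 across 6806 genes, and this single comparison does not settle whether the numbers pair the samples. The cause of these shifts was not tested. With 1 to 2 libraries per group, small changes of low genes were not detectable.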

Other observations

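Amino acid and nucleoside genes held a few further calls. The cystine transporter gene Slc7a11 fell by 1.12 ± 0.23 on the log2 scale and the amino acid transporter gene Slc38a2 fell by 1.11 ± 0.20 (adjusted p = 0.00179 and 0.000469, edgeR, and 0.173 and 0.468 with the library labelled LPS 48 h replicate 1). They were the only called genes among 20 tested ATF4 targets, whose median was -0.22, and 0 of the 20 were called with that library. Slc38a2 lay below all 11 unstimulated libraries at both times. Of 13 tested nucleoside and NAD genes, 1 fell and 1 rose, with a median of 0.31, and 0 were called with the library labelled LPS 48 h replicate 1. The kinase gene Dck rose by 0.83 ± 0.24 (adjusted p = 0.0472, edgeR), a call that held in 2 of 9 fits that left out 1 library. The uridine phosphorylase gene Upp1 fell by 1.10 ± 0.24, a call lost without either succinate library or DMM then LPS 4 h replicate B (adjusted p up to 0.127).

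None of 73 tested genes of oxidative phosphorylation was called, with a median of 0.21. Nor was any of 30 of the citric acid cycle (0.03) or 20 of cholesterol synthesis and uptake (0.37). Of all genes tested, 2.92% were called. For oxidative phosphorylation the mean at 48 h was above that at 4 h for 64 genes after DMM (87.7%). The same held for 40 after succinate (54.8%) and 41 without pretreatment (56.2%). The shares over all genes tested were 53.6%, 50.6% and 49.3%, so the counts after succinate and without pretreatment lay near them. Among receptors for microbes, Tlr1 and Tlr13 rose by 1.23 ± 0.34 and 0.72 ± 0.20, with adjusted p-values up to 0.214 and 0.265 (edgeR) on leaving out 1 library. The calls of both were lost without either 4 h DMM library, LPS 4 h replicate A or DMM then LPS 48 h replicate 2, that of Tlr1 also without DMM then LPS 48 h replicate 1 or LPS 48 h replicate 2, and that of Tlr13 without either succinate library. They were the only called genes of 19 tested for LPS sensing, whose median was -0.1. With the library labelled LPS 48 h replicate 1, neither was called. The stress-response factor gene Atf3 rose by 1.16 ± 0.23, from 54.95, 55.98, 27.3, 109 and 139.6 CPM at 4 h to 103, 67.05, 206 and 389 CPM at 48 h. Of 15 tested adhesion genes, Itgal and Selplg (0.83 ± 0.23) rose and Cd9 (-0.90 ± 0.25) fell, with a median of 0.18. With the library labelled LPS 48 h replicate 1, 0 of them were called. The calls of Selplg and Cd9 held in 4 and 2 of 9 fits that left out 1 library. The integrin gene Itgal rose by 1.04 ± 0.23 (adjusted p = 0.00586, edgeR, and up to 0.0887 without either 4 h DMM library).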
